A study of Mus musculus with 6 samples.

Results

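Bile acid synthesis enzymes and the receptor pair that restrains them were followed in mouse liver: 10 genes, each found as 1 row of a deposited table of 55401 genes by its Ensembl identifier. The livers were fresh tissue of C57BL/6 mice, profiled by poly(A) RNA sequencing with 3 libraries per group. HFCF livers came from mice on a diet rich in fat, cholesterol and fructose. OP livers came from mice given okra polysaccharide, and the labels of these libraries name the treatment but no diet. The labels give no dose, duration, age or sex, and no group on a standard diet enters the comparison, so values describe OP relative to HFCF only. Whether each library of a group is its own mouse is not said either, so the p-values rest on spread that may be partly technical.

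Bile acids are made from cholesterol in hepatocytes by a classic route and an alternative route. Cyp7a1, the rate-limiting cholesterol hydroxylase, opens the classic route, and Cyp8b1 then adds the hydroxyl group that makes cholic acid. Cyp27a1, a mitochondrial sterol hydroxylase, opens the alternative route, and Cyp7b1 hydroxylates the oxysterols it yields. Hsd3b7 and Akr1d1 modify the sterol rings in both routes, and Slc27a5 and Baat activate bile acids and join them to taurine or glycine. Nr1h4 encodes FXR, the nuclear receptor that senses bile acids, and Nr0b2 encodes SHP, the corepressor that FXR induces and that restrains Cyp7a1 and Cyp8b1.

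Promoter sequences are shown for Hsd3b7, which rose in OP and has a table entry, and for Cyp8b1 and Nr0b2, which stand at the output and the relay of the FXR-SHP loop. RefSeq's table for GRCm38.p6 matched 6 of the 10 genes, namely Cyp8b1, Cyp27a1, Hsd3b7, Akr1d1, Nr1h4 and Nr0b2. The 250 bases before the start site are printed 5′ to 3′ on the gene's strand, for Hsd3b7 chr7:127800359-127800608 (plus strand), for Cyp8b1 chr9:121916306-121916555 (minus strand) and for Nr0b2 chr4:133553126-133553375 (plus strand). Capitals mark matches to CAAGGNCA, the letters bound by LRH-1 and other monomeric nuclear receptors.
Hsd3b7: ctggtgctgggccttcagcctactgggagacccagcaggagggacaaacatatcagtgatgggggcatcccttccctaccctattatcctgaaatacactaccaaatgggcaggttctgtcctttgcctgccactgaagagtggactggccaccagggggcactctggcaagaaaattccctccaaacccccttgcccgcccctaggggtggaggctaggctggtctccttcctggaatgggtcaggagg
Cyp8b1: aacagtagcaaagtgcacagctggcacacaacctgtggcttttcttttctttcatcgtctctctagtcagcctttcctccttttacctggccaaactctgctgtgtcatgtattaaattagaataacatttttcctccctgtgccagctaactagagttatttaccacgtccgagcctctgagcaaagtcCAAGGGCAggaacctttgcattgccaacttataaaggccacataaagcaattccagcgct
Nr0b2: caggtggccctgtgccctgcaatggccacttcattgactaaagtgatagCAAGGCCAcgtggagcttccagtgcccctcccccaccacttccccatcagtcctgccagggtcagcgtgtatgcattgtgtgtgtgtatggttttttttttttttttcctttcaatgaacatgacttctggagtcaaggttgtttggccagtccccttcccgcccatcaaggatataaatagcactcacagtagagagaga
CAAGGNCA was searched on both strands, as were the nuclear receptor core site AGGTCA, which it contains when N is T, and the element bound by FXR, a pair of AGGTCA sites facing each other with 1 base between. Only exact letters of the pair were searched, so an imperfect element would be missed. A match to CAAGGNCA was held by 5.53% of the 32851 promoter windows of the same length, AGGTCA by 14.0% and the facing pair by 0.00609%. Cyp8b1 held CAAGGGCA 60 to 53 bases before the start, and Nr0b2 held CAAGGCCA 201 to 194 bases before it. Hsd3b7 held none of the searched letters in this window. AGGTCA was found on the opposite strand in the windows of Akr1d1 and Nr1h4. These are matches of letters, not measured binding.

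Library totals ranged from 46459980 to 61918541 counts, and all 10 genes passed the filter on low counts. Counts are given as CPM, counts scaled to the TMM-adjusted size of the library, which compares 1 gene between libraries. The 6 hepatocyte markers summed to 28028 to 47634 CPM in HFCF and 45241 to 69197 CPM in OP, mostly Alb, with none at 0. Among them Ttr rose and Cps1 fell. The 6 Kupffer cell and macrophage markers summed to 229 to 302 CPM in HFCF and 126 to 213 CPM in OP. Cholangiocyte markers summed to 51.1 to 128 CPM in HFCF and 56.8 to 85.9 CPM in OP, mostly Spp1. All 4 globin genes fell. Ttr, Cps1 and the globin genes lost their calls without HFCF replicate 1 or HFCF replicate 2, Ttr and the globin genes other than Hba-a1 also without OP replicate 1, and Cps1 without OP replicate 2. In the enterocyte list Fabp2, a fatty acid binding protein gene also expressed in liver, and Slc10a2, the apical bile acid uptake transporter, rose (log2 fold changes 0.76 and 2.24). Leaving out HFCF replicate 1 or 2, or else OP replicate 1, ended the call of either. Vil1 of that list did not pass (-0.76 ± 1.45, SE) and was at most at 0.46 CPM, and Fgf15 had 0 counts. The share of counts in mitochondrial mRNAs was 14.1 to 22.0% in HFCF and 6.08 to 14.4% in OP. The part of these shifts in the results below was not tested, except that the mitochondrial share was tried as a covariate. With that covariate Ttr, Cps1, the 4 globin genes, Fabp2 and Slc10a2 lost their calls (edgeR adjusted p of 0.107 to 0.142). In whole tissue, fewer cells of a type and less RNA per cell cannot be told apart.

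Cyp7a1 fell and Hsd3b7 rose in OP, and the other 8 genes did not pass the test. Over all 17394 genes tested, 6.73% passed a threshold of 0.05 on the Benjamini-Hochberg adjusted p of edgeR's quasi-likelihood F test, 3.26% as higher and 3.47% as lower in OP. With 1 higher and 1 lower of 10, each direction rests on a single gene. The median log2 fold change of the 10 genes was 0.20, against 0.019 over all genes tested, with 7 above 0 and 3 below. In 4 of the 10 the OP libraries did not overlap the HFCF libraries, against 31.2% of all genes tested. Of those 4, Hsd3b7, Akr1d1 and Baat were higher in OP and Cyp7a1 was lower; over all genes tested, 15.8% lay wholly above and 15.4% wholly below the HFCF libraries. At an unadjusted p under 0.05 in edgeR there were 3 higher and 1 lower of the 10, which adds Akr1d1 and Nr1h4; over all genes tested that threshold took in 25.2%.

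**Figure D1:**
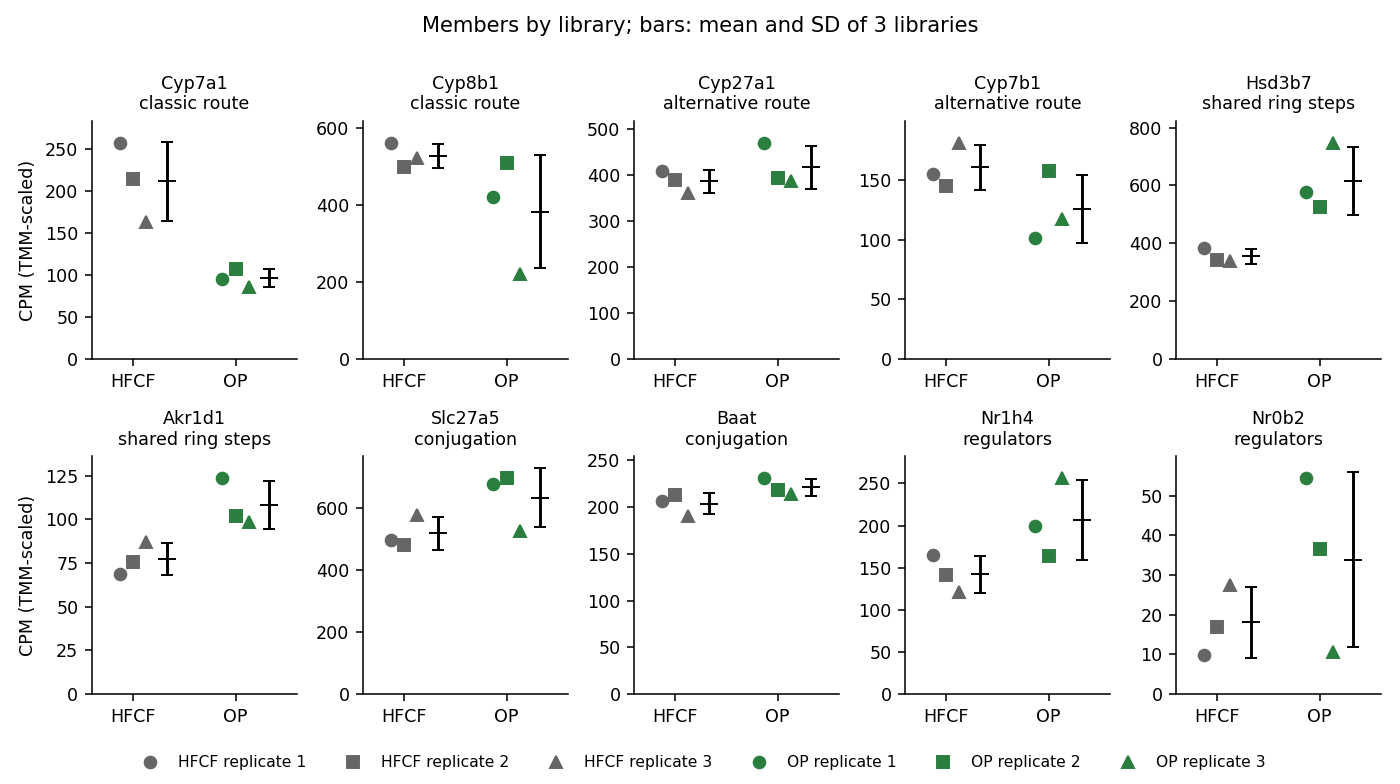
CPM of each of the 10 genes (y axis, from 0) in the HFCF and OP libraries (x axis); symbols are single libraries and bars the mean and SD of 3. Cyp7a1 lies between 163 and 257 CPM in HFCF and between 85.8 and 108 CPM in OP, while Nr0b2 spreads from 10.6 to 54.5 CPM within OP.

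At the head of the classic route, Cyp7a1 was at 257, 214 and 163 CPM in HFCF replicates 1, 2 and 3 and at 94.8, 108 and 85.8 CPM in OP replicates 1, 2 and 3. Every OP library lay below every HFCF library, and the HFCF libraries differed among themselves by up to 1.57-fold, the OP libraries by up to 1.25-fold. The log2 fold change was -1.14 ± 0.19 (SE, n = 3 per group; adjusted p = 0.0149 by edgeR), and the OP mean was 0.454 times the HFCF mean. The call was lost without HFCF replicate 1 (-0.97, adjusted p = 0.0873 in the same edgeR test), HFCF replicate 2 (-1.16, 0.0903) or OP replicate 1 (-1.13, 0.0766), and when the mitochondrial share entered as a covariate (-0.95, 0.191). The replicate number as a block also ended it (-1.12, edgeR adjusted p = 0.0631).

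Cyp8b1, the second enzyme of the classic route, was at 561, 498 and 521 CPM in HFCF and at 420, 508 and 220 CPM in OP. OP replicate 2 lay within the HFCF range and OP replicate 3 lay far below both other OP libraries, a 2.31-fold spread within OP against 1.13-fold within HFCF. The log2 fold change was -0.46 ± 0.27 (SE; adjusted p = 0.34 by edgeR). It was -0.18 without OP replicate 3, -0.72 without OP replicate 2 and -1.19 once the mitochondrial share was a covariate (edgeR adjusted p = 0.201).

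In the alternative route, Cyp27a1 was at 408, 389 and 359 CPM in HFCF and at 469, 393 and 386 CPM in OP. The groups overlapped and the log2 fold change was 0.11 ± 0.14 (SE; adjusted p = 0.686 by edgeR). Cyp7b1 was at 155, 145 and 181 CPM in HFCF and at 102, 157 and 117 CPM in OP. Here 2 OP libraries lay below all HFCF libraries and OP replicate 2 lay among them, with a log2 fold change of -0.35 ± 0.19 (SE; adjusted p = 0.281 in the same edgeR test). Without OP replicate 2 it was -0.55, without OP replicate 1 it was -0.22, and once the mitochondrial share was a covariate it was -0.62.

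Setting the routes against each other within a library removes the scaling. The log2 ratio of Cyp7a1 to Cyp27a1 counts, the opening enzymes, was -0.67, -0.86 and -1.14 in HFCF and -2.31, -1.87 and -2.17 in OP. No OP library overlapped the HFCF range, and the mean ratio was lower in OP by 1.23 on the log2 scale. Since Cyp27a1 changed little (0.11 ± 0.14, SE), this separation mostly restates that of Cyp7a1 and adds little evidence to it. The ratio of Cyp7a1 to Cyp7b1, which carry out the same kind of hydroxylation in the separate routes, was 0.73, 0.56 and -0.15 in HFCF and -0.10, -0.55 and -0.45 in OP. OP replicate 1 and HFCF replicate 3 were near each other on this ratio, so the groups overlapped. Against these, the ratio of Cyp8b1 to Cyp7b1 overlapped between groups (1.85, 1.78 and 1.52 in HFCF, 2.04, 1.69 and 0.91 in OP).

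Averaged over Cyp7a1 and Cyp8b1 minus Cyp27a1 and Cyp7b1 on the log2 scale, the balance of classic to alternative route was 0.42 ± 0.20 (SD) in HFCF and -0.28 ± 0.30 in OP. That mean difference of -0.70 came from 0.59, 0.46 and 0.19 for HFCF replicates 1, 2 and 3 and -0.13, -0.089 and -0.63 for OP replicates 1, 2 and 3. The balance was lower in each OP library than in each HFCF library. It is a description over genes chosen with these data known and carries no test. Of the 4 route genes Cyp7a1 alone passed. The means of Cyp8b1 and of Cyp7b1, which belong to separate routes, were both lower in OP.

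**Figure D2:**
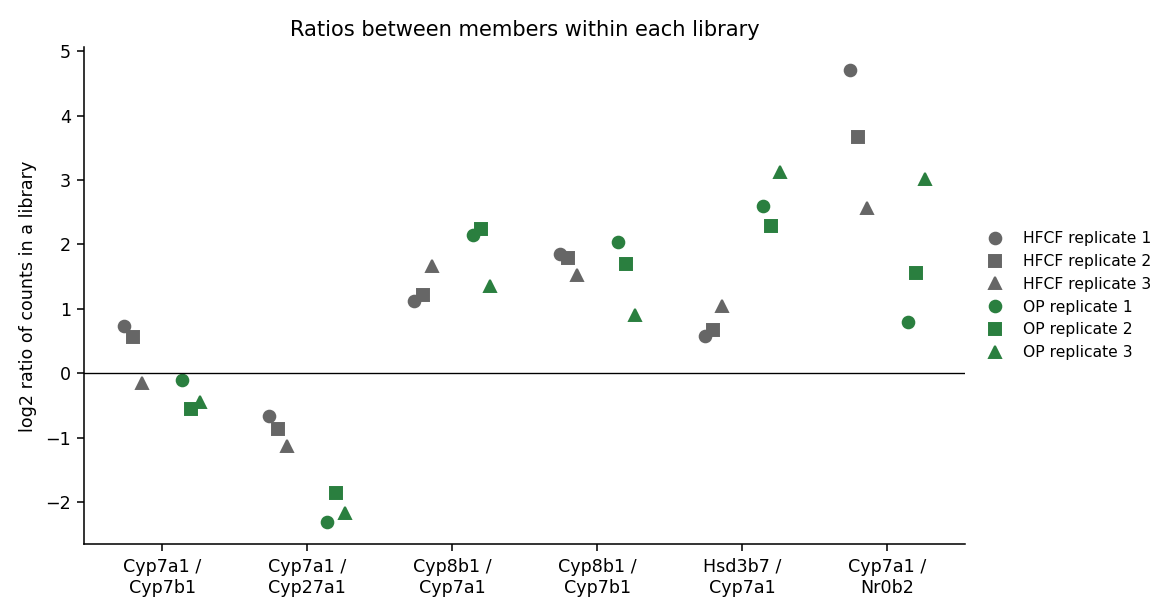
Log2 ratio of the counts of a pair of genes within each library (y axis) for 6 pairs (x axis); symbols are single libraries. Cyp7a1 over Cyp27a1 and Hsd3b7 over Cyp7a1 separate OP from HFCF, and the other pairs overlap.

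Among the ring-modifying enzymes of both routes, Hsd3b7, the dehydrogenase that acts after sterol hydroxylation, was at 384, 342 and 338 CPM in HFCF and at 576, 524 and 748 CPM in OP. All OP libraries lay above all HFCF libraries, with OP replicate 3 the highest. The log2 fold change was 0.80 ± 0.17 (SE, n = 3 per group; adjusted p = 0.0332 by edgeR), and the OP mean was 1.74 times the HFCF mean. It kept its call without OP replicate 2 or 3 and lost it without HFCF replicate 1, 2 or 3 or OP replicate 1, between 0.64 and 0.90 on the log2 scale, with edgeR adjusted p of 0.0376 to 0.194. Without a low-count filter (0.78, edgeR adjusted p = 0.0536) or with the replicate number as a block (0.78, 0.132) Hsd3b7 also lost its call. With the mitochondrial share as a covariate it kept the call (1.16, edgeR adjusted p = 0.0354). In GENCODE M21 Hsd3b7 shares 1729 of its 2769 exon bases with 9430064I24Rik on the opposite strand, which held 577, 469 and 744 counts in HFCF and 879, 781 and 666 in OP, against 16455 to 35908 for Hsd3b7. Gm49388, which shares 1717 bases on the same strand, had 0 counts in every library. Whether the counting used strand is not known from the sources used here.

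Hsd3b7 and Cyp7a1, the genes called in opposite directions, can be set against each other within a library. The log2 ratio of Hsd3b7 to Cyp7a1 counts was 0.58, 0.68 and 1.05 in HFCF and 2.60, 2.28 and 3.12 in OP, which restates the separation of both genes as a ratio and adds no evidence to it.

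Akr1d1, the reductase that gives the ring system its bent shape, was at 69.0, 75.4 and 87.3 CPM in HFCF and at 124, 102 and 98.4 CPM in OP. The groups did not overlap, yet the log2 fold change of 0.48 ± 0.16 (SE) missed the threshold (adjusted p = 0.0956 by edgeR). DESeq2 gave an adjusted p of 0.0422 for it, and its log2 fold change was 0.21 once the mitochondrial share was a covariate.

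Of the conjugating enzymes, Slc27a5, the bile acid-CoA ligase, was at 495, 480 and 577 CPM in HFCF and at 677, 695 and 524 CPM in OP, where OP replicate 3 lay inside the HFCF range. Its log2 fold change was 0.29 ± 0.17 (SE; adjusted p = 0.322 by edgeR), and -0.088 once the mitochondrial share was a covariate. Baat, the acyltransferase that adds the amino acid, was at 207, 213 and 191 CPM in HFCF and at 231, 218 and 214 CPM in OP. The OP libraries lay just above the HFCF libraries, by 0.12 ± 0.13 on the log2 scale (SE; adjusted p = 0.608 in the same edgeR test). Baat varied least of the 10 genes within OP, with a highest library 1.08-fold above the lowest.

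Nr1h4, the gene of FXR, was at 165, 141 and 121 CPM in HFCF and at 200, 164 and 257 CPM in OP. OP replicate 2 overlapped HFCF replicate 1, and OP replicate 3 was the highest of the 6. The log2 fold change was 0.54 ± 0.20 (SE; adjusted p = 0.134 by edgeR), and 1.09 in the fit that held the mitochondrial share, where it passed (edgeR adjusted p = 0.0404).

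Nr0b2, the gene of SHP, was the most variable of the 10 in both groups. It was at 9.83, 16.9 and 27.6 CPM in HFCF (474, 812 and 1671 counts) and at 54.5, 36.7 and 10.6 CPM in OP (3272, 2333 and 509 counts). OP replicate 3 lay near the lowest HFCF library, so the groups overlapped although the OP mean was 1.87-fold higher. The log2 fold change of 0.91 ± 0.55 (SE) did not pass (adjusted p = 0.352 by edgeR). It ranged from 0.39 without OP replicate 1 to 1.35 without HFCF replicate 3, was 1.33 without OP replicate 3, and turned to -1.25 in the fit that held the mitochondrial share. The highest library within HFCF was 2.81-fold above the lowest, and 5.15-fold within OP.

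Nr0b2 and Cyp7a1 mRNA stood in opposite order across the HFCF libraries but not across the OP libraries. With 3 libraries a group such orders are a description, and a relation between the genes was not tested. Within HFCF, Nr0b2 was highest and Cyp7a1 lowest in replicate 3, and Nr0b2 was lowest and Cyp7a1 highest in replicate 1. Within OP, replicate 3 had the lowest Nr0b2 together with the lowest Cyp7a1 and the lowest Cyp8b1, and also the highest Nr1h4 and Hsd3b7. The log2 ratio of Cyp7a1 to Nr0b2 counts was 4.71, 3.66 and 2.57 in HFCF and 0.80, 1.55 and 3.02 in OP, and the groups overlapped.

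The mitochondrial mRNA share was 22.0, 18.8 and 14.1% in HFCF replicates 1, 2 and 3 and 7.48, 6.08 and 14.4% in OP replicates 1, 2 and 3. The libraries with the lowest shares, OP replicates 1 and 2, had the highest Nr0b2, and HFCF replicate 1, with the highest share, had the lowest. HFCF replicate 3 and OP replicate 3 had nearly the same share and differed in Cyp7a1 (163 against 85.8 CPM), Nr1h4 (121 against 257 CPM), Hsd3b7 (338 against 748 CPM) and Nr0b2 (27.6 against 10.6 CPM). They also differed in Cyp8b1 (521 against 220 CPM) and Cyp7b1 (181 against 117 CPM). They were nearer each other in Cyp27a1 (359 against 386 CPM), Baat (191 against 214 CPM), Akr1d1 (87.3 against 98.4 CPM) and Slc27a5 (577 against 524 CPM). This sets 1 library against 1, and the part of the share in these values was not tested. Because the share averaged 18.3% in HFCF and 9.31% in OP, share and group compete for the same difference in the covariate fit.

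**Figure D3:**
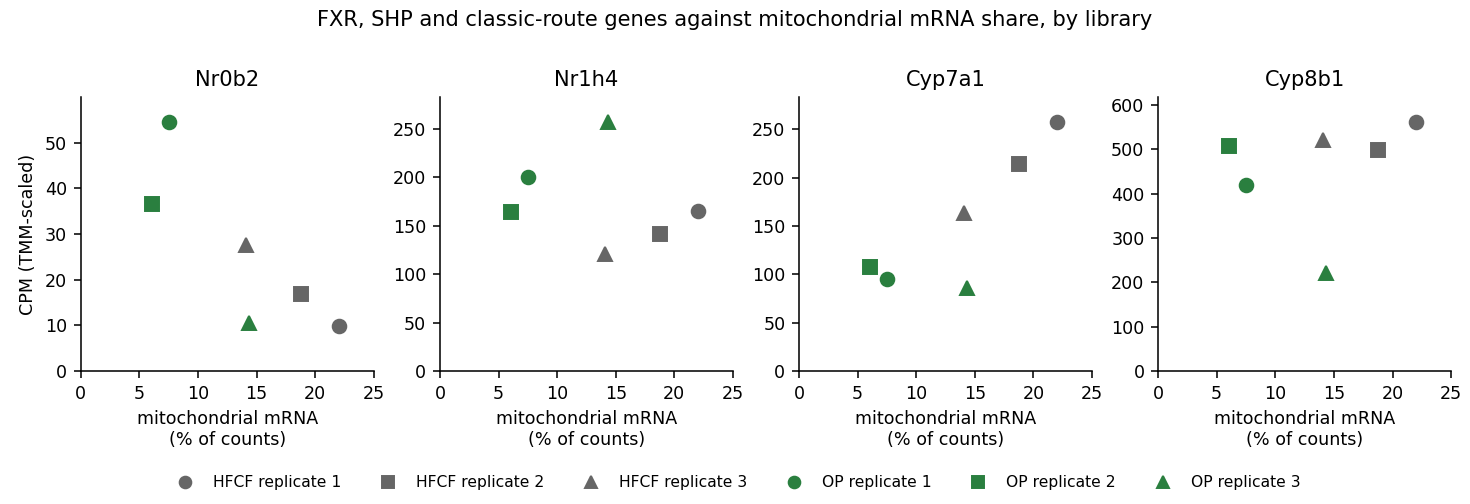
CPM of Nr0b2, Nr1h4, Cyp7a1 and Cyp8b1 (y axes, from 0) against the percentage of counts in mitochondrial mRNAs (x axis) in the 6 libraries. HFCF replicate 3 and OP replicate 3 lie at 14.1 and 14.4%, which sets 1 library against 1. There Nr0b2 was at 27.6 and 10.6 CPM, Nr1h4 at 121 and 257 CPM, Cyp7a1 at 163 and 85.8 CPM and Cyp8b1 at 521 and 220 CPM.

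Levels of different genes were compared per kilobase of annotated exon, since longer transcripts yield more counts. On that scale, in CPM per kilobase, HFCF livers held most of Cyp8b1 (270 ± 16.3, SD), then Slc27a5 (212), Cyp27a1 (177), Hsd3b7 (128) and Baat (105). Below these came Cyp7b1 (74.1), Nr1h4 (61.7), Cyp7a1 (50.7 ± 11.3), Akr1d1 (26.7) and Nr0b2 (16.0 ± 7.90). The first 5 were each clear of the next gene in every library, while Cyp7b1 overlapped Nr1h4, Nr1h4 overlapped Cyp7a1, and Akr1d1 overlapped Nr0b2. In OP the leading genes were Slc27a5 (259), Hsd3b7 (222), Cyp8b1 (196) and Cyp27a1 (191), whose neighbours overlapped. Cyp7a1 was last of the 10 in OP (23.0 ± 2.63 CPM per kilobase), overlapping Nr0b2 (30.0 ± 19.5). Union exon lengths from GENCODE M21 were used, and a gene whose liver transcripts are shorter is understated.

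Other bile acid synthesis genes were read from a list of 14, of which 13 were tested and 0 passed in edgeR, DESeq2 or limma-voom. At an unadjusted p under 0.05 in edgeR 4 of the 13 were higher and 0 lower, against 25.2% of all genes. That count was 0 without HFCF replicate 1 or 2, 1 without OP replicate 2, 2 without OP replicate 1 and 7 without HFCF replicate 3, where 1 gene passed the adjusted threshold. Of these 13, 9 lay above 0 and the median log2 fold change was 0.16. The 3 with the smallest p were Cyp2c70, which makes the muricholic acids of rodents, and the peroxisomal side-chain genes Abcd3 and Scp2. Cyp2c70 was at 17.4, 17.5 and 51.0 CPM in HFCF and 70.1, 39.2 and 77.9 CPM in OP (log2 fold change 1.12 ± 0.44, SE; adjusted p = 0.158 in that edgeR test), with HFCF replicate 3 inside the OP range. Abcd3 (0.46) and Scp2 (0.40) had OP libraries above all HFCF libraries.

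Transcription factors acting on Cyp7a1 and Cyp8b1 made a list of 15, of which 1 rose, 2 fell and 12 did not pass. Over all genes tested, 3.26% were called higher and 3.47% lower, and the list was chosen with earlier results of these data known. Ppargc1a, a coactivator of hepatic fasting genes and of Cyp7a1, fell from 23.7, 25.4 and 21.7 CPM to 4.62, 4.59 and 5.68 CPM, a log2 fold change of -2.25 ± 0.16 (SE) that passed whichever library was left out. Nr1d1, a clock repressor, went from 81.3, 88.7 and 109 to 61.6, 58.6 and 40.9 CPM and lost its call without any 1 of the 6 libraries, and Foxo1 went from 14.8, 14.1 and 17.0 to 34.3, 22.8 and 24.5 CPM and kept it only without OP replicate 2 or 3. Adjusted p was 0.00193 for Ppargc1a, 0.0488 for Nr1d1 and 0.038 for Foxo1 by edgeR. With the mitochondrial share as a covariate Foxo1 lost its call (edgeR adjusted p = 0.312), while Ppargc1a and Nr1d1 kept theirs. Nr1d1 shares 263 exon bases with Thra on the opposite strand. The activators LRH-1 (Nr5a2, 0.15 ± 0.17) and HNF4A (Hnf4a, 0.35 ± 0.21) and the oxysterol receptor LXR-alpha (Nr1h3, 0.33 ± 0.13) gave log2 fold changes that did not pass.

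Fgf15, the intestinal hormone gene through which gut FXR lowers Cyp7a1, had 0 counts in all 6 livers, which allows up to 0.0472 to 0.0625 CPM at 3 counts per library, covering counting error only, and more if a read pair adds several counts. Of 9 genes of its hepatic receptor and kinases, 0 passed in edgeR, DESeq2 or limma-voom, with 1 higher and 2 lower at an unadjusted p under 0.05 in edgeR. That threshold took in 25.2% of all genes, and the count of 3 was 0 without HFCF replicate 1 or OP replicate 2 and 1 without HFCF replicate 2; without OP replicate 3, 1 gene passed the adjusted threshold as lower. Klb, the coreceptor, was at 9.73, 7.92 and 10.2 CPM in HFCF and 7.43, 6.60 and 5.66 CPM in OP, with groups that did not overlap and a log2 fold change of -0.50 ± 0.19 (SE; adjusted p = 0.144 in that test). Fgfr4, the receptor, was at 50.9, 45.6 and 42.5 CPM in HFCF and 30.0, 25.6 and 43.0 CPM in OP, where OP replicate 3 lay within the HFCF range. The kinase gene Map2k1 was at 21.6 to 22.4 CPM in HFCF and 25.7 to 29.1 CPM in OP (0.33 ± 0.13).

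FXR target genes of liver made a list of 11, of which 10 were tested. By edgeR, DESeq2 and limma-voom alike 1 rose and 0 fell, where edgeR called 3.26% of all genes tested higher and 3.47% lower. At an unadjusted p under 0.05 in edgeR 3 were higher and 0 lower, against the same 25.2%. The latter count was 1 without HFCF replicate 2, and 6 (3 higher and 3 lower) once the mitochondrial share was a covariate. In that covariate fit 1 gene passed the adjusted threshold as higher and 1 as lower. With the replicate number as a block 2 passed it as higher and 0 as lower. The gene that rose by edgeR, DESeq2 and limma-voom was Osgin1, an oxidative stress-induced growth inhibitor that NRF2 also induces, from 48.9, 77.9 and 69.2 to 195, 200.3 and 277 CPM. Its log2 fold change of 1.78 ± 0.22 (SE; adjusted p = 0.00587 by edgeR) passed whichever library was left out. Abcb11, the bile salt export pump and a well-known FXR target, was at 191, 207 and 211 CPM in HFCF and 227, 203 and 263 CPM in OP (0.18 ± 0.15), and Abcb4, the phospholipid flippase, was at 254 to 292 CPM in HFCF and 249 to 300.0 CPM in OP (0.018 ± 0.14). Slc51b, the bile acid efflux subunit, was below 1 CPM in each library and was not tested. Its partner Slc51a had 0, 0 and 23 counts in HFCF and 0, 40 and 952 in OP, so its mean rests on OP replicate 3; it shares 567 exon bases with Pcyt1a on the opposite strand, which held 686 counts in that library and 1393 to 3704 in the others. Counts of Apoc2 (0.37 ± 0.22) are uncertain, since 646 of its 813 exon bases also belong to Gm44805.

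Genes whose levels followed the same pattern over the 6 libraries were ranked by the root mean square difference in mean-centred log2 CPM among 11897 candidates. Nearest to Cyp7a1 were Irs2 (0.079), Asap2 (0.083), Zdhhc24 (0.084), Rdh13 (0.086) and Sik1 (0.11). Irs2, an insulin receptor substrate gene, was at 33.1, 23.6 and 19.8 CPM in HFCF and 12.2, 13.3 and 10.2 CPM in OP, with the same order of libraries as Cyp7a1. Nearest to Hsd3b7 were Nolc1 (0.065), Hsd3b2 (0.071), Meg3 (0.073), Apoa2 (0.075) and Lmf1 (0.076). With 6 libraries in 2 groups, such likeness is a description and was not tested.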

How the data were processed

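Per the submitters' processing notes, cutadapt 1.9, FastQC and build GRCm39 were used, in no stated order; the aligner, the counter and whether strand was used are not known from the sources used here. The authors deposited whole-number counts per gene. A count of 4 was commoner than 3 or 5 (909, 482 and 257 genes in OP replicate 1). A read pair may therefore add more than 1 count, and depth would then be overstated.

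Symbols were matched by Ensembl identifier (55141 of 55401). GENCODE M21 (GRCm38) gave exon lengths and overlaps only. Genes passing filterByExpr were TMM-scaled and tested two-sided, OP minus HFCF, with edgeR 4.0.16 (glmQLFit and glmQLFTest, R 4.3.3) and Benjamini-Hochberg adjustment over 17394 genes at 0.05. The procedure was also run on counts simulated as independent libraries. Those hold no shift such as that of the mitochondrial share, so they cannot show how it affects the calls. SE is the log2 fold change over the root of F. Alternatives included DESeq2 1.42.0 and limma 3.58.1 (voom). The 10 genes and all lists were chosen with earlier results of these data known. Named genes were the 10, genes of the 4 pathway lists that passed, otherwise the 3 with the smallest p, and the 5 nearest in pattern to Cyp7a1 and Hsd3b7. Nr5a2, Hnf4a, Nr1h3, Abcb11, Abcb4, Slc51a, Slc51b, Apoc2, Fgf15 and the single marker genes were named after their values were seen. Marker lists not printed in the report summed, in CPM in HFCF and OP, to 146 to 209 and 180 to 248 (stellate cell and fibroblast), 93.5 to 151 and 89.1 to 122 (endothelial), 9.44 to 17.7 and 3.63 to 11.7 (lymphocyte), 0 to 4.66 and 12.4 to 64.7 (adipocyte, mostly Cfd, with Adipoq, Plin1 and Retn each at most at 2.36), 100.1 to 112 and 173 to 201 (enterocyte, mostly Fabp2) and 887 to 1719 and 132 to 344 (red cell).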

Additional observations from a re-analysis of the deposited data

How the results depend on the processing

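The count of the 10 genes called higher in OP was 1 and of those called lower 1. Leaving out 1 library gave 0 to 1 higher and 0 to 1 lower, and 88 to 1310 of all genes called against 1170, with 112 without HFCF replicate 1, 88 without HFCF replicate 2, 203 without OP replicate 1 and 661 without OP replicate 2. The higher count was 2 with DESeq2 (2534 of all genes), with the mitochondrial share as a covariate (207 of all genes, with 0 of the 10 lower) and at an adjusted p under 0.1 (2552). It was 0 without a low-count filter (698 of all genes), and both counts were 0 at an adjusted p under 0.01 (164). With the replicate number as a block both counts were 0 (180 of all genes). Deviations of same-numbered libraries from their group means correlated at 0.0154, -0.189 and -0.286. With 3 libraries a group these values cannot decide whether the numbers pair the samples, and the labels do not say. Where either count was 0, edgeR gave 2 to 5 of the 10 at an unadjusted p under 0.05, against 15.9 to 26.2% of all genes in those settings. Cyp7a1, Cyp8b1, Cyp7b1, Cyp27a1, Hsd3b7, Akr1d1, Baat and Nr1h4 kept their direction in all 20 alternatives. Among those, the thresholds of 0.01 and 0.1 and an edgeR fit with robust dispersion left the log2 fold changes as in the main fit. With the mitochondrial share as a covariate Slc27a5 turned to -0.088 and Nr0b2 to -1.25; the cause was not tested. The OP minus HFCF difference in the balance of classic to alternative route, -0.70 with all libraries, ranged from -0.81 to -0.53 with 1 library left out. Libraries of 46459980 counts or more gave each of the 10 genes at least 474 counts, and with 3 libraries a group the exact permutation test of a single gene cannot go below 0.1.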
